A study of Homo sapiens with 6 samples.

Results

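Microtubules are hollow polymers of alpha- and beta-tubulin dimers, and gamma-tubulin seeds them at the centrosome. Vertebrate cells hold several genes for each kind, called isotypes, which differ mostly at the end of the protein. Megakaryocytes and platelets use TUBB1, a beta-tubulin nearly restricted to that lineage, to build the ring of microtubules that keeps a platelet flat, and TUBA4A is an alpha-tubulin of platelets. The tubulin isotypes described here are 10 genes, TUBB1, TUBB, TUBB2A, TUBB2B, TUBB3, TUBB6, TUBA1A, TUBA4A, TUBA8 and TUBG1. They are 10 of 19775 genes, and they are measured by the 14 probe sets, of 54613 without controls, to which the platform annotation gives 1 gene symbol from among these names. A further 25 probe sets of other tubulin genes and pseudogenes are described apart.

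RNA came from K562 cells, a human erythroleukemia line derived from chronic myeloid leukemia, in which 3 stably transfected clones (CL4, CL9 and CL46) carry an ERG gene behind a doxycycline-inducible promoter (pTRE-ERG). Each clone was hybridized once after 8 days with 1 µg/ml doxycycline (labelled ERG-induced) and once without it (labelled non-induced), which gave 3 arrays per group on an Affymetrix U133 Plus platform. Each clone is a separate transfected line, within a clone no array was repeated, and every induced culture and no other received doxycycline, so that ERG and doxycycline cannot be told apart. ERG, an ETS transcription factor, had mean log2 ratios of 0.15, -0.93 and -0.71 in the arrays labelled ERG-induced of CL4, CL9 and CL46 and of 1.50, -0.13 and -0.57 in the others. It was thus lower in 3 of 3 clones labelled ERG-induced, against the label and without passing the test (difference -0.76, SE 0.63, adjusted p = 0.671), so the arrays are called by their labels. In the direction of the labels, SELP, GP1BA, CMTM5 and ITGB3, which the study lists among its own genes, were called higher in the arrays labelled ERG-induced. The study took its genes from these arrays with these labels, so their direction is no independent check of the labels. For SELP it also reports upregulation by PCR. Whether the ERG probe sets read the introduced gene is not stated in the methods, and a legend of the study gives a shorter induction than the labels do.

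The values are the authors' linear ratios, shown here as log2, and that they are relative to the median of each probe set is read from the values and not stated by the authors. They hold no brightness, so neither the presence of a tubulin nor the order of isotypes by level can be read from them, and for the 14 tubulin probe sets, whose median ratio was 1, a value of 0 means only that an array sits at that median. The median ratio of an array ran from 0.898 to 1.07. In what follows, with doxycycline and without doxycycline stand for the arrays labelled ERG-induced and non-induced, and values of the clones are in the order CL4, CL9, CL46. Among the controls, 3 probe sets for ribosomal RNA were on average higher with doxycycline, by 1.21, 0.59 and 0.82 (log2) in the clones. This is their mean level and no measure of RNA integrity. The part of RNA quality in the tubulin values was not tested.

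None of the 10 tubulin genes was called by the study's thresholds, a fold of at least 2 and a p under 0.05. The study does not say whether its p was adjusted, and here it is unadjusted. In the limma fit over 19775 genes, 0 tubulin members were called higher, where 3.12% of all genes were, and 0 were called lower, where 6.32% were. Of the single probe sets, 0 of 14 were called, against 2.82% called higher and 8.16% called lower over all probe sets. An unadjusted p under 0.05 was reached by 1 of the 10 genes, TUBA4A, and by 12.9% of all genes. After adjustment over all genes, 0 genes in the whole table passed 0.05 in this fit (2544 had an unadjusted p under 0.05). The lowest adjusted p among the tubulins was 0.247. The median log2 difference of the 10 genes, with minus without doxycycline, was 0.01, and that of all genes -0.03. The median size of the difference regardless of sign was 0.24 for the tubulins and 0.47 for all genes.

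**Figure D1:**
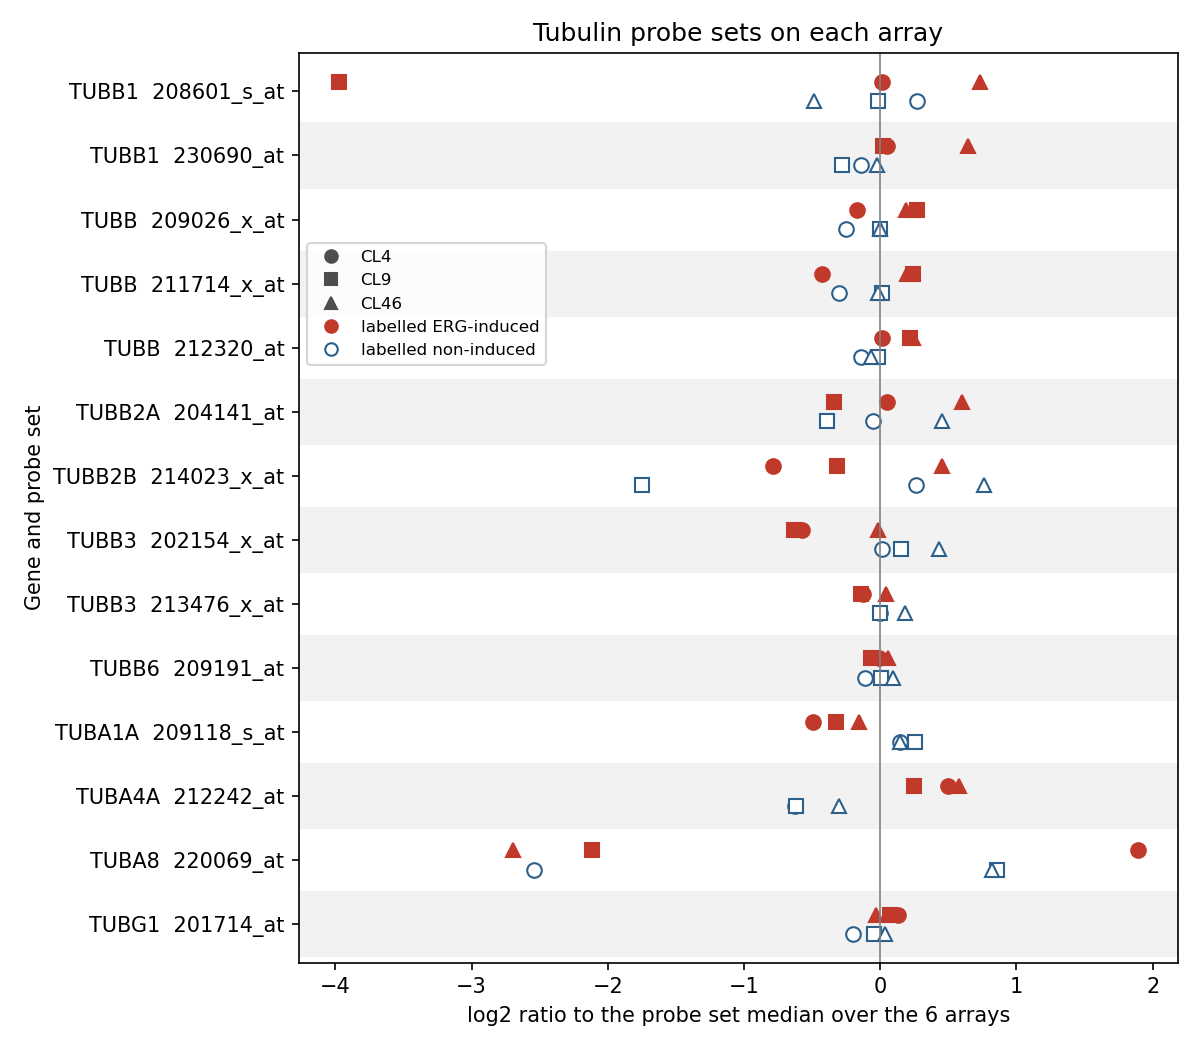
Log2 ratio of the 14 tubulin probe sets on each array, with filled red symbols for arrays labelled ERG-induced, open blue symbols for those labelled non-induced, and a symbol shape for each clone. Most points lie within 1 log2 unit of the median, while TUBA8, TUBB2B and the TUBB1 probe set 208601_s_at spread over wider ranges, and the TUBA4A groups do not overlap.

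The isotypes varied widely in how alike the 3 clones were. The standard deviation (SD) of the 3 clone differences was 0.05 for TUBB2A, 0.09 for TUBB3, 0.09 for TUBB6, 0.12 for TUBB, 0.15 for TUBA4A, 0.18 for TUBA1A and 0.20 for TUBG1. It was 1.27 for TUBB2B, 1.40 for TUBB1 and 4.44 for TUBA8. Its median was 0.16 over the tubulins and 0.67 over all genes, and 0.283% of genes had a larger SD than TUBA8. For 4 genes, TUBB, TUBB3, TUBB6 and TUBG1, the 95% interval of the difference lay inside a fold of 2 in both directions. For the other 6 it did not, so for these this fit does not limit the difference to less than a fold of 2. It leaves the pairing by clone out. With the clone as a block, the SE of TUBB2A was 0.22 in place of 0.37 and that of TUBA8 1.93 in place of 1.53. Intervals of that paired fit are not given here.

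**Figure D2:**
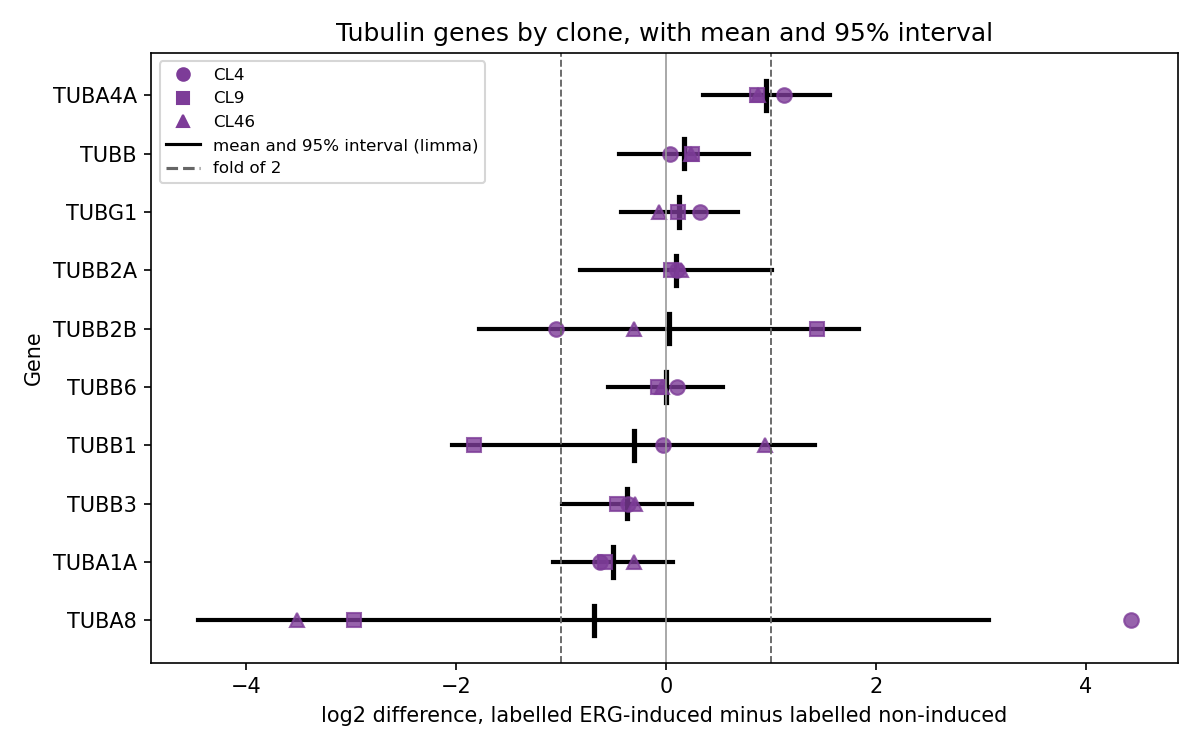
Log2 difference of each tubulin gene, labelled ERG-induced minus labelled non-induced, with a symbol for each clone, a thick tick for the mean, a line for the 95% interval of the limma fit and dashed lines at a fold of 2. TUBA4A lies highest at 0.96, its interval is the only one of the 10 that leaves out 0, and the clones of TUBA8 lie at 4.43, -2.98 and -3.52.

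TUBB1 is represented by 2 probe sets, and they did not give the same picture. Probe set 208601_s_at stood at 0.01, -3.97 and 0.73 with doxycycline and at 0.27, -0.02 and -0.49 without doxycycline. One array, that of CL9 with doxycycline, thus lay far below the other 5, and the groups overlapped. Its log2 difference was -0.999 (SE 1.27, 95% interval -4.16 to 2.17, adjusted p = 0.792), and 0.48 with CL9 left out. Probe set 230690_at stood at 0.05, 0.02 and 0.65 with doxycycline and at -0.14, -0.28 and -0.02 without doxycycline. Here every induced array lay above every non-induced one, with a difference of 0.39 (SE 0.30, 95% interval -0.36 to 1.14, adjusted p = 0.649). Whether the probe sets differ from each other was not tested. Averaged over both, the difference of TUBB1 was -0.31 (SE 0.70, 95% interval -2.03 to 1.42, adjusted p = 0.899), and the clones gave -0.03, -1.83 and 0.94. It turned to 0.45 without CL9, so its direction rests on that clone.

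Some other megakaryocyte and platelet genes differed on the same arrays. Of 20 such genes 18 were measured, and 5 were called higher (27.8%) and 0 lower, with a median difference of 1.15. Over all genes, 3.12% were called higher and 6.32% lower. The other 13 carried no call, among them ITGA2B, which the study lists. Of the 18, 9 were higher in all 3 clones and 0 lower in all 3, and the rest had no common direction. F13A1, the clotting factor XIII A chain, rose 9.80-fold (log2 difference 3.29, SE 0.54, adjusted p = 0.192), and the clones gave 3.60, 4.35 and 1.92. CMTM5 rose 6.27-fold, and GP1BA, a subunit of the platelet receptor for von Willebrand factor, 5.19-fold. SELP, the adhesion receptor P-selectin, rose 13.5-fold. ITGB3, the beta chain of the platelet fibrinogen receptor, rose 2.34-fold. It carried no call when CL9 (1.12) or CL46 (1.33) was left out, with the median over its probe sets (1.11) and without probe sets ending in _x_at or _s_at (0.50). Without CL4, 8 genes of this list were called higher. The study lists SELP, GP1BA, CMTM5 and ITGB3, though not F13A1, among its own genes from these arrays, so this count is not independent evidence of its direction.

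The 5 genes whose pattern over the 6 arrays was most like that of TUBB1, by Pearson's r of the gene values, were MMP26 (0.999), PTP4A3 (0.996), PCLO (0.995), ZNF302 (0.995) and CNKSR1 (0.993). In all 5 the lowest array was that of CL9 with doxycycline, at -3.27 for MMP26 and -1.09 for PCLO. Over the other 5 arrays r was 0.990 for MMP26 and 0.963 for PCLO. These values describe 6 arrays that share clones, out of 19775 genes searched.

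**Figure D3:**
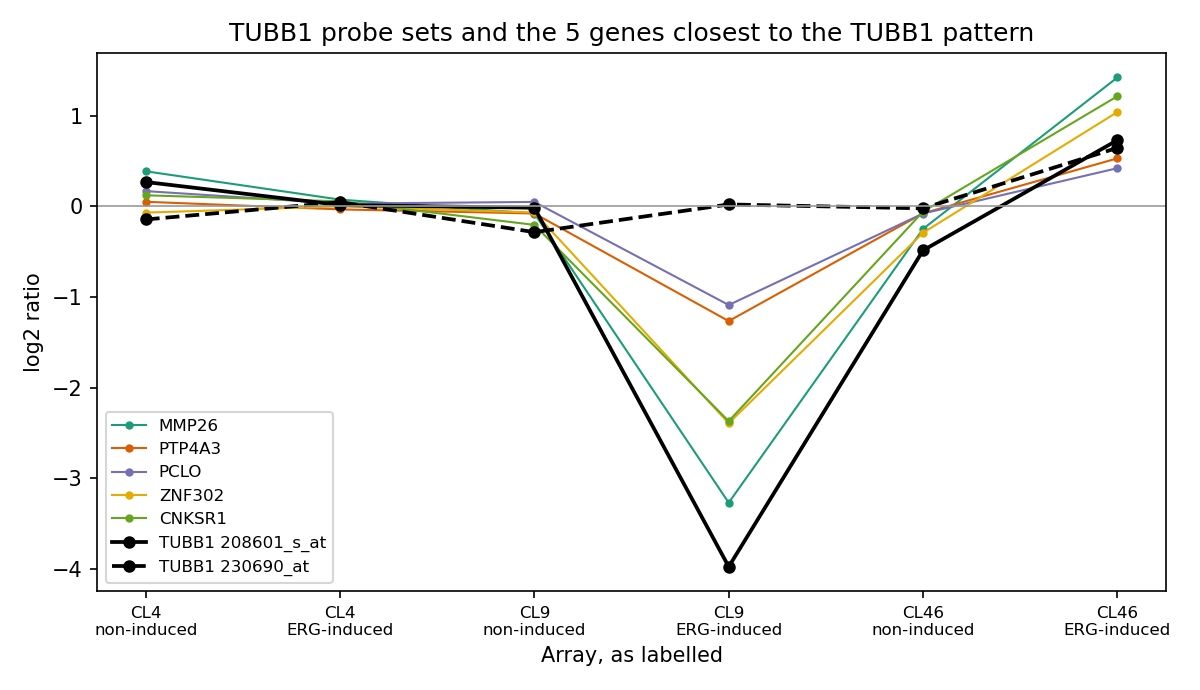
Log2 ratio on the 6 arrays of both TUBB1 probe sets (black) and of the 5 genes closest to the TUBB1 gene value (coloured). Probe set 208601_s_at and all 5 genes dip in the array of CL9 labelled ERG-induced, where probe set 230690_at stands at 0.02.

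TUBA4A, an alpha-tubulin of platelets, came closest of the 10 to a call. Its single probe set stood at 0.49, 0.25 and 0.58 with doxycycline. Without doxycycline it stood at -0.63, -0.62 and -0.30. All 3 induced arrays lay above all 3 non-induced ones. The difference was 0.96 on the log2 scale, 1.94-fold (SE 0.25, 95% interval 0.35 to 1.56, unadjusted p = 0.00859, adjusted p = 0.247), just short of a fold of 2. By clone it was 1.12, 0.87 and 0.88, against 1.21, 0.59 and 0.82 for the ribosomal RNA controls. TUBA4A passed the study's thresholds with each array centred on its median (1.06, adjusted p = 0.187), after quantile normalization (1.16, adjusted p = 0.171) and without CL9 (1.00), and over all alternatives its adjusted p ran from 0.171 to 0.574. Of all genes, 9.95% had a difference at least as high. TUBA4B, the next gene along chromosome 2, had a difference of -0.80 (SE 0.71), the clones giving 0.38, -2.34 and -0.42.

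The 5 genes most like TUBA4A over the 6 arrays were COXFA4 (r = 0.997), ETV6 (0.996), CCDC63 (0.993), GATA3-AS1 (0.993) and CRYL1 (0.987), likewise as a description. ETV6, an ETS family repressor of blood cells, was called higher at 2.11-fold and CCDC63 at 14.3-fold, while CRYL1 differed by 0.89, GATA3-AS1 by 0.86 and COXFA4 by 0.27 without a call. They were named after the values of TUBA4A had been seen.

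TUBA1A, an alpha-tubulin prominent in developing neurons, had a difference of the opposite sign in all 3 clones. Its probe set stood at -0.49, -0.33 and -0.16 with doxycycline and at 0.14, 0.25 and 0.15 without doxycycline. The groups did not overlap. The difference was -0.51 (SE 0.23, 95% interval -1.08 to 0.06, adjusted p = 0.436), which did not pass the test. TUBA4A and TUBA1A were the 2 of 10 genes without overlap between the groups, where 21.6% of all genes showed none, and among the probe sets this held for 5 of 14, against 22.3%.

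The difference between these 2 alpha-tubulins within an array is unchanged by a single scaling factor for each array, though not by quantile normalization, which gave 1.16 for TUBA4A and -0.40 for TUBA1A. The log2 ratio of TUBA4A minus that of TUBA1A was 0.99, 0.58 and 0.73 with doxycycline and -0.77, -0.87 and -0.45 without doxycycline. Its change was 1.76, 1.45 and 1.19 in the clones, on average 1.46 (SD 0.29, n = 3). The pair was chosen after its values were seen, for opposite signs and groups that did not overlap, so this is a description with no test, and it does not tell which of the isotypes moved.

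**Figure D4:**
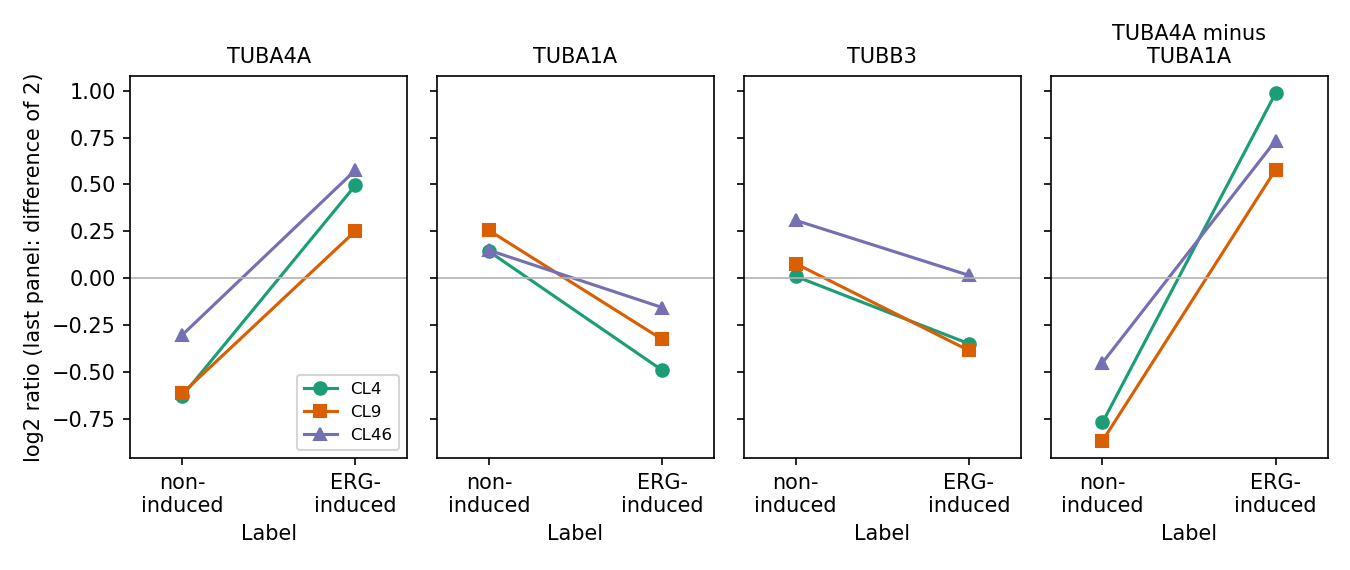
Log2 ratio in the arrays labelled non-induced and ERG-induced, joined for each clone, for TUBA4A, TUBA1A and TUBB3, and in the last panel the difference of TUBA4A and TUBA1A within each array. All 3 lines climb for TUBA4A, by 1.12, 0.87 and 0.88, and descend for TUBA1A and TUBB3.

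TUBA1A lies between TUBA1B and TUBA1C on chromosome 12, and most probe sets of these closely related genes had differences of the other sign. TUBA1A itself rests on 1 probe set, 209118_s_at, which also carries a suffix for shared sequence. Whether it reads TUBA1A alone was not tested. The probe sets of TUBA1B ending in _x_at, a suffix that marks possible cross-hybridization, differed by 0.08 to 0.17, and those of TUBA1C by 0.11 and 0.12. A further TUBA1B probe set, 1565668_at, gave -1.88 (SE 1.21) with 1.01, -1.83 and -4.83 in the clones.

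The promoters of TUBB1, TUBA4A and TUBA1A are shown because ERG binds DNA through the ETS core GGAA. TUBB1 and TUBA4A were introduced above as tubulins of platelets. TUBA1A is the alpha-tubulin whose groups did not overlap in the opposite direction. The 250 bases before the RefSeq gene start (GRCh38.p14) are given 5′ to 3′ on the strand of the gene, with each GGAA on either strand (TTCC when on the other) in capitals. TUBB1 lies on the plus strand (chr20:59019179-59019428), and TUBA4A (chr2:219253919-219254168) and TUBA1A (chr12:49189081-49189330) on the minus strand.
TUBB1: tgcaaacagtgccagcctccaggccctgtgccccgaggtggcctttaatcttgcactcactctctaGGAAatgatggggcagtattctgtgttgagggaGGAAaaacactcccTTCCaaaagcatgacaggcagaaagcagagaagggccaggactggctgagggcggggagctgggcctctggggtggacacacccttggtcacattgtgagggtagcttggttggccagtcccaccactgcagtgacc
TUBA4A: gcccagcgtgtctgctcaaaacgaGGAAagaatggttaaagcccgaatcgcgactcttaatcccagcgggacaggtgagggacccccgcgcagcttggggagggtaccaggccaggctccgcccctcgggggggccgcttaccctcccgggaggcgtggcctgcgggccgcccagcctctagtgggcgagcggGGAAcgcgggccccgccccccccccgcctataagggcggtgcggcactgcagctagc
TUBA1A: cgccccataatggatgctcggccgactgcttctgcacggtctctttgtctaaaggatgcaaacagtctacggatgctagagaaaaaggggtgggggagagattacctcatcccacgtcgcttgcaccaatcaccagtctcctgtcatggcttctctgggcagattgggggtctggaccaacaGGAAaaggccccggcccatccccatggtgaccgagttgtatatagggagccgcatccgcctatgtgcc

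These windows hold GGAA 3 times in TUBB1, 2 times in TUBA4A and 1 time in TUBA1A, and 92.7% of 35116 promoter windows of the same length hold it at least once, with a mean of 2.94. The longer ETS form CCGGAA, which contains that core, was in 0 of the 10 tubulin windows and in 14.5% of all. TGANTCA, the core of AP-1 and NF-E2 sites, was found 1 time, in TUBB3 (6.57% of all windows), and the GATA site AGATAA in none (9.17%). All 10 genes matched the promoter table, both strands were searched, and a match or its absence in such a window says nothing of binding.

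TUBB, the broadly used beta-tubulin, was measured by 3 probe sets with differences of 0.18, 0.10 and 0.23. Probe set 212320_at, the one without a suffix for shared sequence, stood at 0.02, 0.22 and 0.24 with doxycycline and at -0.14, -0.02 and -0.07 without doxycycline. These groups did not overlap, yet the step was small. The gene difference was 0.17 (SE 0.25, 95% interval -0.45 to 0.79, adjusted p = 0.832), higher in 3 of 3 clones.

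TUBB2A and TUBB2B, beta-tubulins of neurons among other tissues, are neighbours on chromosome 6 and are close in sequence. TUBB2A stood at 0.05, -0.34 and 0.60 with doxycycline and at -0.05, -0.39 and 0.45 without doxycycline. The clones thus differed from each other in both states, and within a clone the arrays lay close together, with differences of 0.10, 0.05 and 0.14 (mean 0.10, SE 0.37, 95% interval -0.82 to 1.01). TUBB2B, measured only by probe set 214023_x_at, stood at -0.79, -0.32 and 0.45 with doxycycline and at 0.26, -1.75 and 0.76 without it. Its clone differences of -1.05, 1.43 and -0.31 had no common direction (mean 0.03, SE 0.74, 95% interval -1.79 to 1.84). Probe set 209372_x_at, annotated to both genes and therefore no member, differed by -0.14 (SE 0.25).

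TUBB3, the beta-tubulin used as a marker of neurons, was lower in 3 of 3 clones in both of its probe sets, without passing the test. Probe set 202154_x_at stood at -0.57, -0.63 and -0.02 with doxycycline and at 0.02, 0.16 and 0.43 without doxycycline, which did not overlap (difference -0.61, SE 0.31, adjusted p = 0.481). Probe set 213476_x_at gave -0.13, -0.14 and -0.14 in the clones. Both carry the suffix that marks possible cross-hybridization, and whether they read other tubulins was not tested. The gene difference was -0.37 (SE 0.25, 95% interval -0.99 to 0.25, adjusted p = 0.601). Of 18 other neuronal genes, all were measured, and 0 were called in either direction (median 0.08). Of all genes, 3.12% were called higher and 6.32% lower.

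TUBB6, a beta-tubulin of many non-neuronal tissues, had the smallest mean difference of the 10. Its values ran from -0.07 to 0.05 with doxycycline and from -0.11 to 0.10 without it. The difference was -0.0047 (SE 0.22, 95% interval -0.55 to 0.54, adjusted p = 0.996), and 0.10 once arrays were centred on their medians.

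TUBA8, an alpha-tubulin of few tissues, varied most. Its probe set stood at 1.89, -2.12 and -2.69 with doxycycline and at -2.54, 0.86 and 0.82 without doxycycline. CL4 thus moved up while CL9 and CL46 moved down, by 4.43, -2.98 and -3.52. The mean difference was -0.69 (SE 1.53, 95% interval -4.46 to 3.08, adjusted p = 0.894). Without CL4 it was -3.25 and called lower (unadjusted p = 0.00134, adjusted p = 0.352), without CL9 0.46 and without CL46 0.73. Which clones differed alike was not tested, since each is 1 pair of arrays. Whether this probe set was detected above background cannot be read from ratios without brightness.

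TUBG1, the gamma-tubulin of the centrosome, stood at 0.13, 0.07 and -0.03 with doxycycline and at -0.20, -0.05 and 0.03 without it. The difference was 0.13 (SE 0.23, 95% interval -0.43 to 0.68, adjusted p = 0.866). TUBG2, its neighbour on chromosome 17 and a second gamma-tubulin gene, differed by -1.28 (SE 0.67, 95% interval -2.93 to 0.37, adjusted p = 0.487), and the clones gave -0.18, -1.50 and -2.17.

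Of 13 other tubulin genes, 9 were measured by probe sets with 1 symbol, and 1 was called lower and 0 higher (median -0.20). Over all genes 6.32% were called lower and 3.12% higher. The tubulin called lower, TUBD1, the delta-tubulin of centrioles, was lower 3.19-fold (-1.67 on the log2 scale, SE 0.48, adjusted p = 0.278), and the clones gave -1.10, -2.45 and -1.47. Of its 3 probe sets 2 were called lower (-1.39 and -1.69) and the other gave -1.94, and the call was lost without CL46 (-1.78). TUBE1, the epsilon-tubulin that works beside it, differed by -0.67 (SE 0.59) with 0.27, -0.06 and -2.23. The others lay between -0.80 (TUBA4B) and 0.27 (TUBAL3), apart from TUBG2. Outside these genes, the probe set of the pseudogene TUBBP5, named after its value was seen, was called higher at 2.53 (SE 0.71, adjusted p = 0.249), the clones giving 3.26, 2.78 and 1.56.

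Genes that fold, seed, modify and bind tubulin were counted in the same fit, against 3.12% called higher and 6.32% called lower over all genes. Of 20 measured genes of tubulin folding (prefoldin, the CCT chaperonin and the tubulin cofactors), 1 was called lower, TBCEL, a cofactor E-like protein that destabilizes tubulin (-1.22, SE 0.43, adjusted p = 0.335). Its call was lost with any one of the clones left out (-0.91, -1.41 and -1.35 without CL4, CL9 and CL46) and after quantile normalization (-1.11). Of 19 genes of the gamma-tubulin ring complex and its partners, 1 was called lower, HAUS6, a subunit of the augmin complex that branches spindle microtubules (-1.41, SE 0.29, adjusted p = 0.196). The median of this list was -0.32, with 10 genes lower in all 3 clones and 2 higher, and 2 genes were called lower with the clone as a block. Of 26 tubulin-modifying enzymes, which add or remove tyrosine, glutamate, glycine or acetyl groups, 0 were called (median 0.07), although 3 were called higher without CL4 and 2 lower without CL9.

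Of 37 microtubule-associated proteins, 1 was called higher (2.70%) and 7 lower (18.9%), with a median of -0.28. MAP2, which stabilizes microtubules in dendrites, rose 3.72-fold (log2 difference 1.90, SE 0.36, adjusted p = 0.192). Leaving out probe sets with a median below 1 gave 0.85 and no call. FIGNL1, a relative of the severing enzyme fidgetin, was 2.70-fold lower (-1.43, SE 0.28, adjusted p = 0.192), CAMSAP2, which holds microtubule minus ends, 3.17-fold lower, and CKAP5, a microtubule polymerase, 2.20-fold lower. CAMSAP2 lost its call without CL9 (-1.66), and CKAP5 without CL9 (-0.92) or CL46 (-1.20) and after quantile normalization (-0.95). The number called lower was 6 without CL4, 1 without CL9 and 3 without CL46, 3 after quantile normalization and 5 with each array centred on its median. That count therefore rests on the clones and on the scaling of the arrays.

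**Figure D5:**
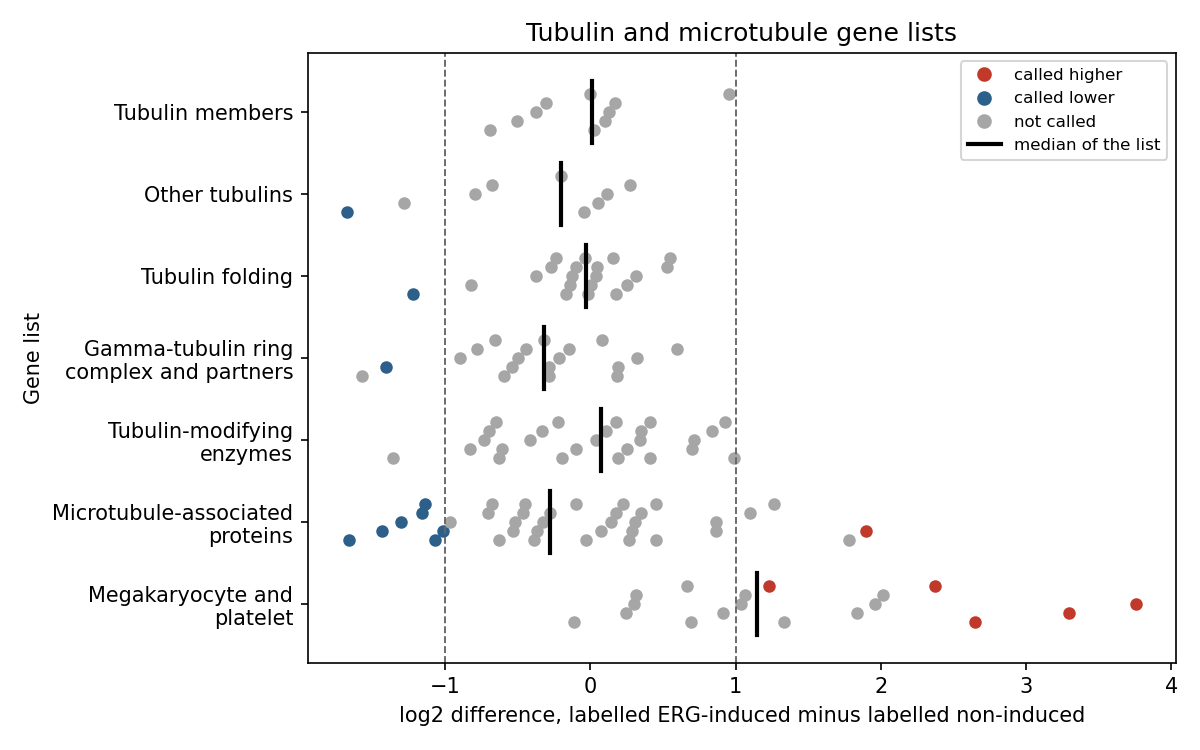
Log2 difference, with minus without doxycycline, of every measured gene of 7 lists, red where called higher, blue where called lower and grey where not called, with the list median as a black line and dashed lines at a fold of 2. The height of a point within a list has no meaning. The tubulin members lie between -0.69 and 0.96 with no call, the microtubule-associated proteins hold 7 genes called lower, and the megakaryocyte and platelet genes have a median of 1.15.

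Markers of other cell types were counted on the same arrays, where 3.12% of all genes were called higher and 6.32% lower. Of 13 measured erythroid genes, 1 was called lower (7.69%), the transferrin receptor gene TFRC (-1.67), and 0 higher (median 0.25). TFRC went against most of its list, in which 7 genes were higher in all 3 clones and 2 lower. Of 12 fibroblast genes, 2 were called higher (16.7%), FAP (3.61) and PDGFRA (1.43), and 1 lower (8.33%), COL1A1 (-1.09). PDGFRA lost its call without CL4 (1.37), and COL1A1 without CL4 (-0.85) or CL9 (-1.11) and under several other settings, among them centring of the arrays (-0.99). Of 10 measured monocyte and granulocyte genes, 0 were called (median 0.46), and 1 was called higher with the clone as a block. All arrays are of clones of the K562 line, so these counts describe genes and not cells of these types. Since the values hold no brightness, whether such transcripts were present cannot be read from them. A change in some cells of a culture and a change in all of them cannot be told apart.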

How the data were processed

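The authors hybridized RNA of 6 cultures to Affymetrix arrays and processed them with GeneSpring. The deposited values are linear ratios, a unit inferred from the values, since the authors do not state the scaling. The median over these arrays was 1 (tolerance 1e-05) for 50737 probe sets, the tubulin members among them, and below 1 for 3938, for which the scaling is not known. How background, array scaling and probe set summary were handled is not stated in the methods or labels read here, and no value column lacked a sample.

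The log2 of each ratio was taken, without a floor. Without 62 control probe sets, 54613 remained, of which 41091 carried 1 gene symbol, 1801 several and 11721 none. The symbols of the 14 tubulin probe sets all matched RefSeq by gene ID. A gene's value is the mean of its probe sets, for 19775 genes. Genes and probe sets were each fitted whole in limma 3.58.1 (R 4.3.3; lmFit and eBayes, no trend, two-sided, Benjamini-Hochberg adjustment over the whole table). Calls used the study's fold of 2 and p under 0.05, here unadjusted, and the methods do not name the study's test. Errors are standard errors (SE) of the log2 difference of 3 arrays against 3 unless named otherwise, p-values measure the spread between clones, and the number of arrays limits the precision. The fit was tested on simulated data.

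The members, lists and tests were chosen with earlier results of these data known. Named genes are the members, the other tubulins called, of each list up to 4 called genes with the smallest p, the 5 genes most like TUBB1, and ERG. Outside that rule, ITGB3, ITGA2B, TUBBP5, the genes most like TUBA4A and tubulins without a call were named after their values were seen. The lists covered other tubulins, tubulin folding, the gamma-tubulin ring complex, tubulin-modifying enzymes, microtubule-associated proteins, and megakaryocyte, erythroid, neuronal, fibroblast, and monocyte and granulocyte markers. Alternatives were the clone as a block, array centring, quantile normalization, filters on probe sets, the median over probe sets, other variance moderation, an adjusted threshold and leaving out each clone. Arrays of 1 clone are paired by that clone, and the correlation of their deviations from the group means across genes was 0.04, 0.05 and 0.03 in CL4, CL9 and CL46.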

Additional observations from a re-analysis of the deposited data

How the results depend on the processing

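With 3 arrays a group and no brightness in the values, only large or even differences could be told from the spread between clones. Over the 12 alternatives, 117 values of the 10 tubulin genes were recomputed, of which 104 kept direction and call, 4 gained a call and 9 turned sign. The clone as a block, other variance moderation and the adjusted threshold leave each mean difference as it was and could not turn a sign. Leaving out probe sets with a median below 1 removed no tubulin probe set. The median over probe sets could move only TUBB, and leaving out suffixed probe sets only TUBB1 and TUBB. The 104 thus include values whose direction was fixed beforehand. The tubulin genes called higher became 1, TUBA4A, once arrays were centred on their medians and after quantile normalization, as did the probe sets called higher, and ran from 0 to 1 with a clone left out. Those called lower ran from 0 to 1 with a clone left out (TUBA8 without CL4), as did the probe sets called lower. The median of the tubulins was 0.11 with centring, 0.095 after quantile normalization, 0.13 without probe sets ending in _x_at or _s_at, and from -0.017 to 0.13 with a clone left out, while the scalings moved the median of all genes to 0.08 and 0.11. The difference of TUBB1 turned to 0.39 without probe sets ending in _x_at or _s_at and ran from -0.93 to 0.45 with a clone left out. Turned signs were also found for TUBB6 (0.10 with either scaling, and -0.058 to 0.030 with a clone left out), TUBB2B (-0.68 without CL9, highest 0.56), TUBA8 (-3.25 to 0.73 with a clone left out) and probe set 208601_s_at (-2.11 to 0.48). TUBA1A, TUBB2B and TUBB3 could not be computed without the suffixed probe sets. The cause of these shifts was not tested. With the clone as a replicate block (paired fit), TUBA4A kept 0.96 (adjusted p = 0.353), 0 tubulins were called, and the genes called changed from 1 to 2 (microtubule-associated proteins, higher), 1 to 2 (gamma-tubulin ring complex, lower), 0 to 1 (monocyte and granulocyte, higher) and 5 to 7 (megakaryocyte and platelet, higher), with the other lists at their counts. The lowest adjusted p of all genes was then 0.350. It was 0.101 in the main fit, 0.057 without probe sets ending in _x_at or _s_at, and 0.030, under 0.05, after quantile normalization.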
